A study of Saccharomyces cerevisiae with 14 samples.

Results

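The plasma membrane proton pump of budding yeast (Saccharomyces cerevisiae) and its small companion proteins are described here through 5 genes among the 6102 array positions that carry an open reading frame. They are PMA1 (YGL008C), PMA2 (YPL036W), PMP1, PMP2 and PMP3 (YDR276C), found by gene or open reading frame name. The arrays list PMP1 with the open reading frame YCR024c and PMP2 with YEL0171, so both were taken by gene name. PMA1 and PMP2 were selected on their large differences after treatment with methyl methanesulfonate (MMS), a chemical that methylates DNA, so their differences between treated and mock arrays are given as a description without a test. The genome build is not given in the sources used here, and no coordinates are printed.

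Total RNA was copied into 33P-labelled cDNA, and this was hybridised to membranes with 2 spots per gene. Strain FF18984 was grown to mid log phase in minimal F1 medium or in full YPD medium, and each culture was split into a mock aliquot, an aliquot with 0.00125% MMS (low dose) and an aliquot with 0.0125% MMS (high dose), sampled after 30 min or 1 h. This gave 12 arrays in 4 membrane sets, since the 3 arrays of 1 medium and time used the same membrane, stripped in between. Strain BY4742 gave 2 further arrays on a membrane set of their own, mock and 0.0125% MMS in YPD at 1 h. No condition was replicated, the labels do not say whether the 2 times came from 1 culture, and the genotype of FF18984 is not given in the labels. Precision is limited by how few arrays there are, and p-values reflect the spread between these arrays. For medium and time the fitted block correlation was 0.07. With only 4 membrane sets, divided by medium and time, the spread between membranes can hardly be measured apart from medium and time.

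Pma1 is the P-type ATPase that pumps protons out of the yeast cell at the cost of ATP. It keeps the cytoplasm near neutral and builds the proton gradient that drives the uptake of sugars, amino acids and ions, and it is among the most abundant proteins of the plasma membrane. Pma2 is a close paralog that can pump protons but is normally made in small amounts. Pmp1 and Pmp2 are tiny, nearly identical proteolipids that co-purify with the pump and are known to regulate its activity. Pmp3 is a small hydrophobic membrane protein of another family, whose loss makes cells hyperpolarised and sensitive to sodium. Because PMA1 and PMA2, and PMP1 and PMP2, are alike in sequence, each position may also have bound cDNA of its paralog, and the share of such signal was not tested.

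The median background-subtracted signal ran from 41.7 to 2018610 over the 14 arrays, so each array was scaled to its own median before log2 transformation and quantile normalisation. Between 2.57% and 33.4% of genes per array lay at or below the local background, and paired spots correlated across genes at a Spearman coefficient of 0.675 to 0.939. Set against the FF18984 median, the BY4742 mean was lower for 7 of 7 a-specific mating genes (by as little as -0.10 for BAR1) and higher for 4 of 4 alpha-specific ones. Of 4 genes that BY4742 lacks, URA3 and LEU2 lay beneath all FF18984 arrays in both BY4742 arrays, while HIS3 (-0.16 from the FF18984 median) and LYS2 (3.33) lay inside the FF18984 range. In the fits below a gene passed at an adjusted p under 0.05 by limma with Benjamini-Hochberg adjustment over all 6102 positions. A level is a log2 intensity, a log2 difference of 1 is a 2-fold difference, and an array median is the median positive signal of that array.

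PMA1 was low in most 30 min arrays and high in the 1 h arrays of FF18984, and in each of the 4 FF18984 membrane sets both MMS arrays lay above their mock array. In F1 at 30 min its log2 level was -0.80 in mock, 2.37 at the low dose and 0.66 at the high dose. In F1 at 1 h it was 2.71, 3.76 and 4.45 in the same order, so the high-dose array was the highest and the mock array the lowest. In YPD at 30 min it was 0.46, 1.11 and 1.06. In YPD at 1 h it was 1.55, 3.97 and 4.54, so the highest levels in both media were those of the high dose at 1 h. In BY4742 the order was the opposite, with 1.34 in mock and -1.30 at the high dose, the lowest PMA1 level of all 14 arrays. As each level is an average over a culture, fewer cells with the transcript and less RNA per cell cannot be told apart.

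The spots of PMA1 agreed well at 1 h and poorly at 30 min. The median gap between the 2 spots was 0.08 on the log2 scale over the 6 FF18984 arrays at 1 h and 1.50 over the 6 at 30 min. In the F1 30 min mock array 1 spot stood at -0.97 and the other at 2.46 array medians, so 1 of them lay below the local background. In the high-dose array of BY4742 the spots stood at 0.81 and -0.09 array medians. The 14 arrays were then ordered by PMA1 level. Of the 13 neighbouring pairs, 4 were separated by more than their spot values spread, and the other 9 were not. Spot gaps were taken before quantile normalisation and levels after it, so the counts for PMA1 and for the other genes below are approximate.

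PMA2 was above background on all 14 arrays and was higher with MMS in most FF18984 sets. Its level in F1 was 3.16, 3.69 and 2.33 at 30 min (mock, low, high) and 2.64, 3.34 and 3.71 at 1 h. In YPD it was 1.57, 2.95 and 2.68 at 30 min and 1.41, 3.68 and 3.44 at 1 h. BY4742 gave 2.01 in mock and 2.36 at the high dose. Both YPD mock arrays of FF18984 were the lowest of the 14, and 7 of the 8 treated FF18984 arrays lay above their own mock array, the exception being the high dose in F1 at 30 min. Of the neighbouring levels 5 of 13 differed by more than the spot spread. The spots disagreed most in the YPD 30 min mock array, at 5.93 and 1.69 array medians.

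**Figure D1:**
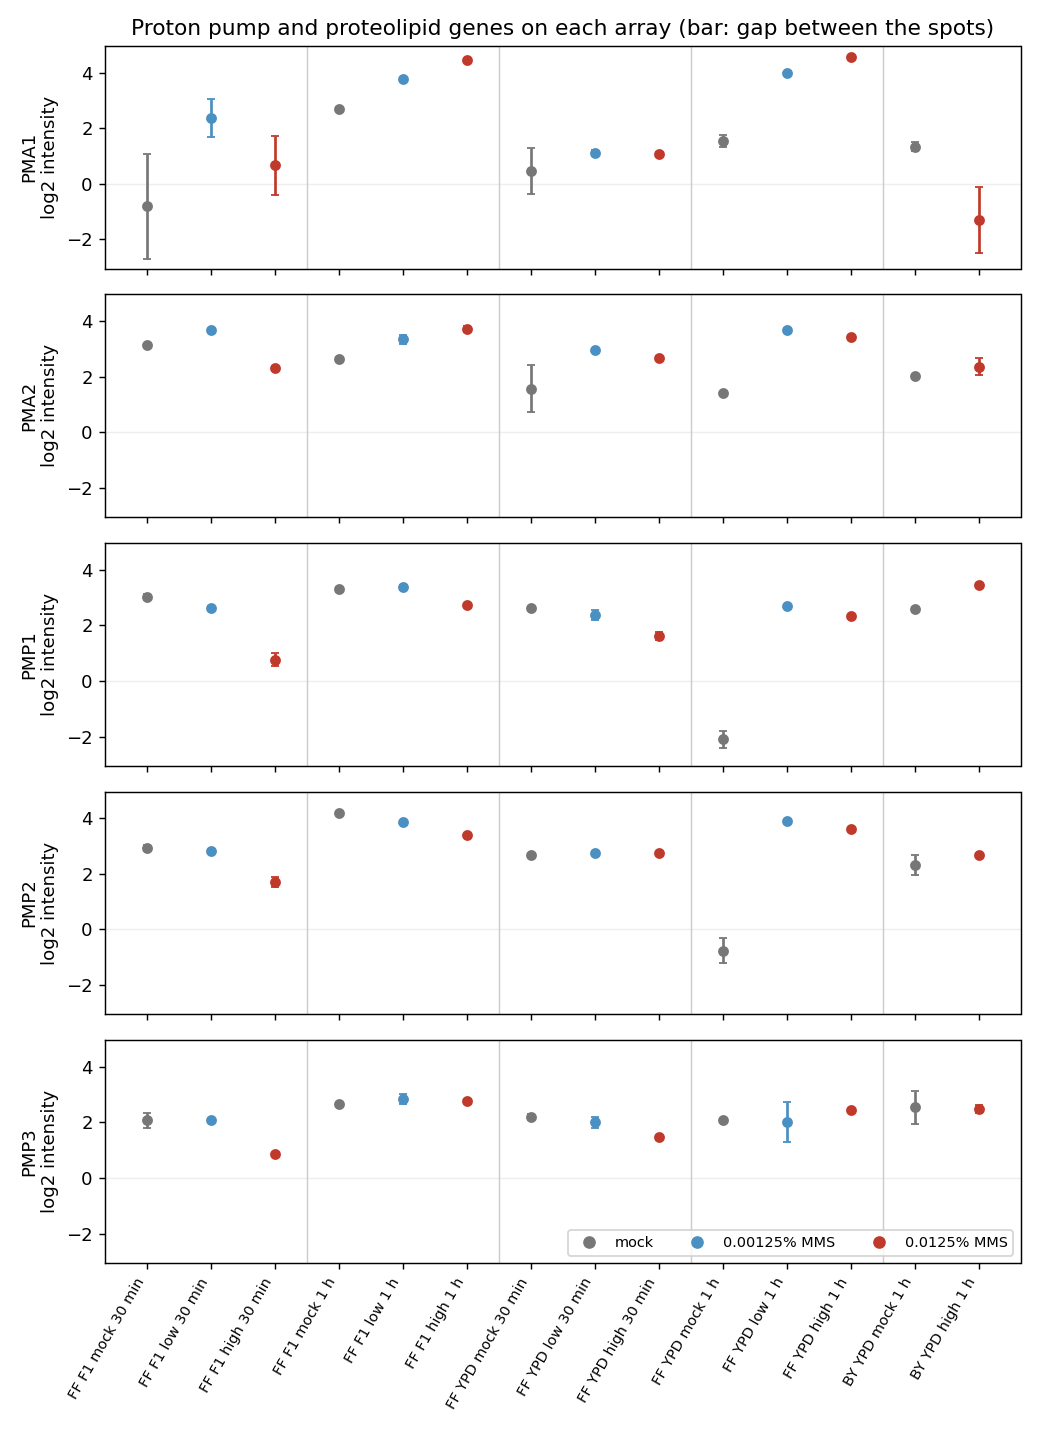
Log2 intensity (y axis, quantile-normalised) of the 5 genes on each of the 14 arrays (x axis), grouped by membrane set. FF stands for FF18984 and BY for BY4742. The bars span the gap between the 2 spots of a gene before quantile normalisation. PMA1 stands higher at 1 h than at 30 min in FF18984, and PMP1 and PMP2 are dim on the YPD 1 h mock array alone.

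PMP1 and PMP2, the paired proteolipid genes, moved almost together. PMP1 stood at 3.01, 2.62 and 0.76 in F1 at 30 min (mock, low, high) and at 3.29, 3.36 and 2.74 in F1 at 1 h. In YPD it stood at 2.61, 2.37 and 1.62 at 30 min and at -2.10, 2.70 and 2.32 at 1 h. In BY4742 it was 2.57 in mock and 3.46 at the high dose. The lowest level among 13 arrays was 0.76, while the YPD 1 h mock array lay far beneath all of them and was the only array in which PMP1 was at or below the background.

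PMP2 stood at 2.93, 2.81 and 1.71 in F1 at 30 min and at 4.19, 3.86 and 3.40 in F1 at 1 h. In YPD it was 2.69, 2.77 and 2.76 at 30 min and -0.77, 3.88 and 3.60 at 1 h, and in BY4742 it was 2.32 in mock and 2.69 at the high dose. Apart from the YPD 1 h mock array, the levels ran from 1.71 to 4.19, and the 5 treated and mock arrays of FF18984 at 1 h that remain were the 5 highest. Of the 13 neighbouring pairs, 5 differed by more than the spot spread for PMP1 and 7 for PMP2.

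PMP3 was the steadiest of the 5, with levels between 0.88 and 2.83 and a median of 2.15 over the 14 arrays. In F1 it was 2.07, 2.09 and 0.88 at 30 min (mock, low, high) and 2.65, 2.83 and 2.77 at 1 h. In YPD it was 2.21, 2.01 and 1.47 at 30 min and 2.09, 2.02 and 2.44 at 1 h, and in BY4742 it was 2.54 and 2.49. Its 2 lowest arrays were the high-dose arrays at 30 min, and 4 of 13 neighbouring levels differed by more than the spot spread. The PMP3 spots disagreed most in the YPD 1 h low-dose array, at 2.91 and 8.21 array medians. In the BY4742 mock array they stood at 9.13 and 3.93, and the second had a local background of 12.3 times the array's median background.

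The differences of PMP1 and PMP2 in the YPD 1 h set rest on its dim mock array. There the PMP1 spots stood at -4.08 and 0.11 array medians, against 10.0 and 9.79 in the low-dose array on the same membrane. The local backgrounds of the PMP1 spots were 4.33 and 2.79 times the array's median background. The spot integral of the first was 0.61 of its local background. The PMP2 spots stood at 0.32 and 0.75 array medians, against 28.0 and 30.3 in the low-dose array, with local backgrounds of 1.13 and 1.14 times the array's median background. The PMP1 position thus lay in an area of high local background on this array, and the PMP2 position lay close to the array's median background. High local background at PMP1 was not particular to this array, although 4.33 was the highest value in FF18984. In the low-dose array on the same membrane it was 2.76 times the median at the first spot. In the BY4742 mock array it was 5.82 and 4.97 times, with PMP1 spots at 5.64 and 6.57 array medians. Whether the local background bears on the dim PMP1 signal was not tested.

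The 49 neighbouring positions of PMP1 on the labelled grid had a median difference between low dose and mock in YPD at 1 h of 0.18, and the highest was 2.35. For the 49 neighbours of PMP2 the median was 0.79 and the highest 2.79. As PMP2 was selected on such pairs, nothing is read from its place among its neighbours, nor from its rank over all positions. Over all 6102 positions, PMP1 ranked at 2 and PMP2 at 7 by how far the YPD 1 h mock array lay beneath the lowest of the other 13, at 2.86 and 2.48, and 66 positions exceeded 1 on this measure. The other 8 of the first 10, named after their values were seen, included HSP150, a cell wall protein gene (4.32), HTA1, a histone H2A gene (2.82), CDC19, pyruvate kinase (2.81), the glucose transporter genes HXT7 (2.53), HXT6 (2.51) and HXT1 (2.29), GLK1, glucokinase (2.42), and ATP1, a subunit of mitochondrial ATP synthase (2.40). PMA2 stood at 0.15 on this measure, PMP3 at -1.21 and PMA1 at -2.85.

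**Figure D2:**
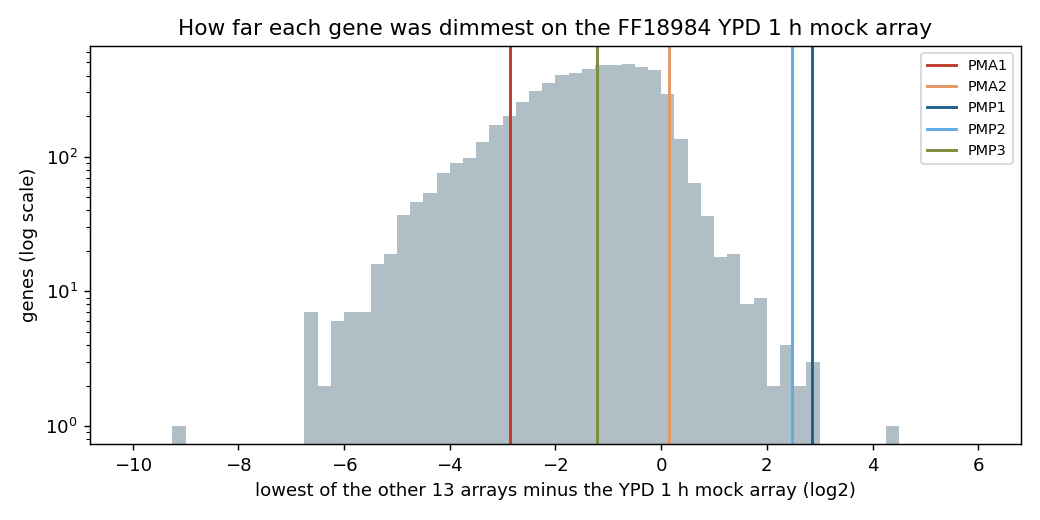
Number of genes (y axis, log scale) by the lowest level among the other 13 arrays minus the level in the FF18984 YPD 1 h mock array (x axis, log2). The lines mark the 5 genes, and PMP1 (2.86) and PMP2 (2.48) lie at the upper end.

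Each treated array was compared with the mock array on its membrane, which gave 9 pairs and 45 values for the 5 genes. A difference of 1 or more on the log2 scale in either direction was found for 19 of the 45, 15 higher and 4 lower. In FF18984 in F1, the share of all positions past this size was 20.0% at the low dose and 36.7% at the high dose after 30 min, against 1 and 4 of the 5 genes. It was 17.9% and 20.3% after 1 h, against 1 and 2 of the 5. In YPD the share was 8.75% and 20.3% after 30 min, against 1 and 1 of the 5, and 30.2% and 34.5% after 1 h, against 4 and 4. In BY4742 it was 9.06%, against 1 of the 5. PMA1 and PMP2 were selected on such differences, so nothing is read from their counts.

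PMA1 was higher than mock in 8 of 8 treated FF18984 arrays, by 0.61 to 3.17. In F1 at 30 min it was higher by 3.17 at the low and 1.47 at the high dose, but these pairs rest on the mock array whose spots disagree. With the second spot alone the same pairs gave -0.18 and -2.42, and without background subtraction the high-dose pair gave -0.37. At 1 h, where the spots agreed, it was 1.05 and 1.74 higher in F1 and 2.42 and 2.995 higher in YPD. The last was 7.97-fold. The local backgrounds of the PMA1 spots in YPD at 1 h were 1.57 and 1.20 times the array's median background in mock. They were 5.72 and 5.00 times at the high dose. In F1 at 1 h they were 3.67 and 2.24 times in mock and 3.14 and 3.15 times at the high dose. The spot integrals in F1 were 2.89 and 4.40 times the local background in mock and 3.15 and 3.12 times at the high dose. In YPD they were 1.63 and 2.17, and 2.75 and 2.88 times. The share of all positions at or below background rose with dose on these membranes. It was 2.57%, 16.1% and 31.4% in F1 and 11.2%, 23.1% and 33.4% in YPD (mock, low, high). Whether this share or the local backgrounds bear on these differences was not tested. Under median centring the high-dose pairs at 1 h gave 3.02 in F1 and 4.87 in YPD. In YPD at 30 min the differences were 0.65 and 0.61, and these have no settled direction either: the first spot alone gave -0.22 and -0.01, and the high-dose pair gave -0.36 without background subtraction. The 4 pairs at 1 h stayed above 0 in all 8 settings run, at 0.71 to 4.87. Over the 4 sets the mean difference was 1.82 ± 1.17 (SD, n = 4) at the low dose and 1.70 ± 0.99 (SD, n = 4) at the high dose. Both doses share a mock array in each set, so they are compared within sets. The high dose stood above the low dose in both 1 h sets and beneath it in both 30 min sets, and this was not tested.

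PMA2 was higher than mock in 7 of 8 treated FF18984 arrays. The low dose gave 0.54 and 0.70 in F1 at 30 min and 1 h, and 1.38 and 2.27 in YPD. The high dose gave -0.83 and 1.07 in F1, and 1.11 and 2.03 in YPD. The YPD differences exceeded 1 in all 4 pairs, but those at 30 min rest on the mock array whose spots disagree: the first spot alone gave 0.62 and 0.48, and the high-dose pair gave 0.72 without background subtraction and -0.11 under median centring. In BY4742 PMA2 differed by 0.35, while PMA1 differed by -2.64 on the same pair of arrays.

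Outside the YPD 1 h set, PMP1 and PMP2 lay close to mock at the low dose. Only the high dose in F1 at 30 min put both past 1 on the lower side. In that pair the 49 neighbouring positions had a median difference of -0.92 for PMP1 and -0.89 for PMP2, against -0.12 over all positions. Whether this bears on the differences of PMP1 and PMP2 was not tested. The high-dose values of PMP1 were -2.25 and -0.55 in F1 at 30 min and 1 h and -0.99 in YPD at 30 min. PMP2 differed by -1.22, -0.80 and 0.07 in the same pairs. The last pair uses the array with by far the highest median signal, where PMP2 stood at 3.27 array medians, against 7.22 in mock. The low dose gave -0.40, 0.07 and -0.23 for PMP1 and -0.11, -0.34 and 0.08 for PMP2 in these sets. The smaller of these have no settled direction, since under median centring the high-dose pair in F1 at 1 h turned to 0.55 for PMP1 and 0.38 for PMP2, the low-dose pairs in F1 at 30 min to 0.04 and 0.29, the low-dose pair of PMP2 in F1 at 1 h to 0.26 and its high-dose pair in YPD at 30 min to -1.20. Under cyclic loess the low-dose pair of PMP2 in F1 at 30 min turned to 0.01. In the YPD 1 h set PMP2 was 4.65 higher at the low and 4.36 higher at the high dose. No fold is given for PMP1 there, as its mock signal was at or below the background: its differences of 4.81 and 4.43 depend on the pseudocount, were 3.11 and 2.77 with 4 times the pseudocount, and were 0.89 and 0.49 without background subtraction. PMP2 was still 2.44 and 2.15 higher without background subtraction. In BY4742 PMP1 differed by 0.89 and PMP2 by 0.37.

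PMP3 stayed within 1 of mock in 8 of the 9 pairs. The exception was the high dose in F1 at 30 min, with a difference of -1.20, or 2.29-fold lower, where PMP1 and PMP2 were lower too. The size past 1 was lost for PMP3 under median centring (-0.80), cyclic loess (-0.55), no background subtraction (-0.91), 4 times the pseudocount (-0.996) and with the second spot alone (-0.74). For PMP2 in this pair the first 3 of these gave -0.84, -0.54 and -0.81, and PMP1 was at -0.79 without background subtraction. The other high-dose pairs gave 0.12 in F1 at 1 h, -0.74 and 0.35 in YPD at 30 min and 1 h, and -0.05 in BY4742. The BY4742 pair gave -0.89 with the first spot alone and 0.75 with the second alone. The 4 low-dose pairs lay between -0.20 and 0.18, and the one in YPD at 1 h, at -0.07, turned to 0.58 under median centring. By spot that pair gave -0.59 with the first alone and 0.45 with the second alone.

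**Figure D3:**
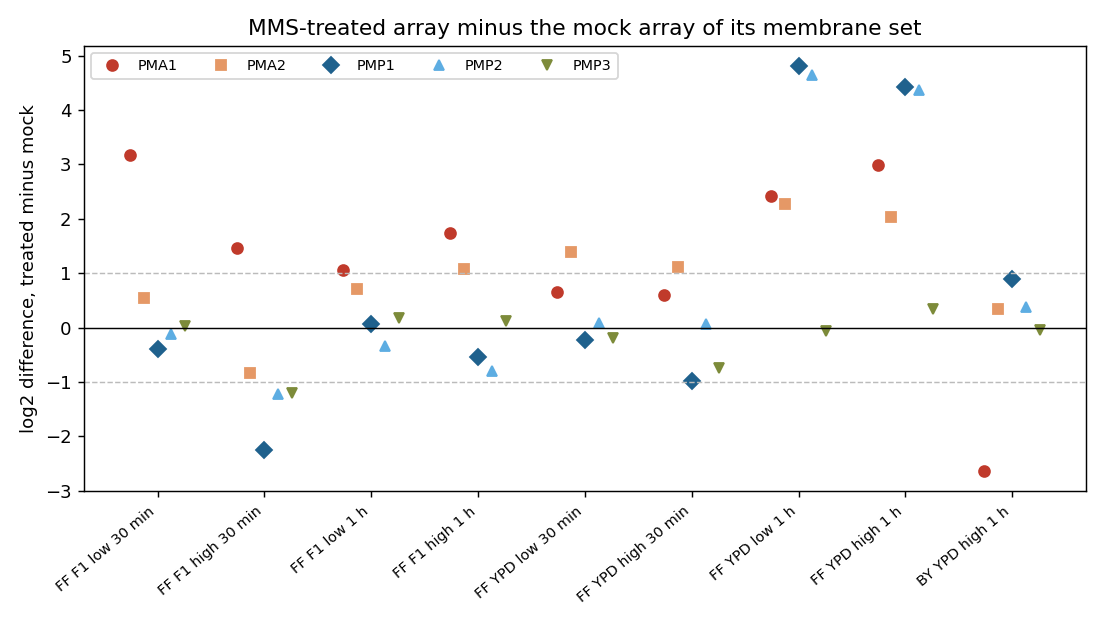
Log2 difference between each treated array and the mock array of its membrane set (y axis) for the 5 genes in the 9 pairs (x axis), with dashed lines at -1 and 1. PMA1 is above 0 in 8 FF18984 pairs and at -2.64 in BY4742, and PMP1 and PMP2 exceed 4 in the YPD 1 h pairs only.

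The dose comparison over all 12 FF18984 arrays asked which genes differ with MMS whatever the medium and time, with membrane set as a block. None of the 3 genes that could be tested passed at either dose. At the high dose 5 of 6102 positions passed (0.0819%), 3 higher and 2 lower, and 812 had an unadjusted p under 0.05. PMA2 differed by 0.85 ± 0.39 (SE, 4 sets; limma adjusted p = 0.365), with mean levels of 2.20 ± 0.84 in mock and 3.04 ± 0.65 at the high dose (SD, n = 4). PMP1 differed by 0.16 ± 0.77 (limma adjusted p = 0.942) and PMP3 by -0.37 ± 0.31 (limma adjusted p = 0.626), and PMP3 turned to 0.15 under median centring. The fitted values of PMA1 and PMP2, given without a test, were 1.70 ± 0.43 and 0.61 ± 0.71. Without background subtraction PMA1 was at 0.70, PMP2 turned to -0.08 and PMP1 to -0.43, and PMP1 turned to -0.14 with 4 times the pseudocount.

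At the low dose 0 of 6102 positions passed by limma (0.0%), and 392 had an unadjusted p under 0.05. PMA2 differed by 1.22 ± 0.39 and was higher in 4 of 4 sets (limma adjusted p = 0.696), with a mean level of 3.42 ± 0.35 (SD, n = 4) at the low dose. PMP1 differed by 1.06 ± 0.77 (limma adjusted p = 0.846) and PMP3 by -0.02 ± 0.31 (limma adjusted p = 0.992), or 0.34 under median centring. The fitted values of PMA1 and PMP2 were 1.82 ± 0.43 and 1.07 ± 0.71, and without background subtraction 0.81 and 0.38, with PMP1 at 0.01.

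Without the YPD 1 h mock array, a setting chosen after the data were seen, the proteolipid genes changed sides. PMP1 at the high dose was then at -1.18 ± 0.34 (limma adjusted p = 0.333) and PMP2 at -0.62 ± 0.30, and at the low dose they were at -0.27 ± 0.34 (limma adjusted p = 0.999) and -0.15 ± 0.30. PMA1 stayed above 0, at 1.39 ± 0.45 at the high and 1.51 ± 0.45 at the low dose. PMA2 was at 0.47 ± 0.37 and 0.85 ± 0.37 (limma adjusted p = 0.669 and 0.999). PMP3 was at -0.48 ± 0.34 and -0.13 ± 0.34 (limma adjusted p = 0.632 and 0.999).

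**Figure D4:**
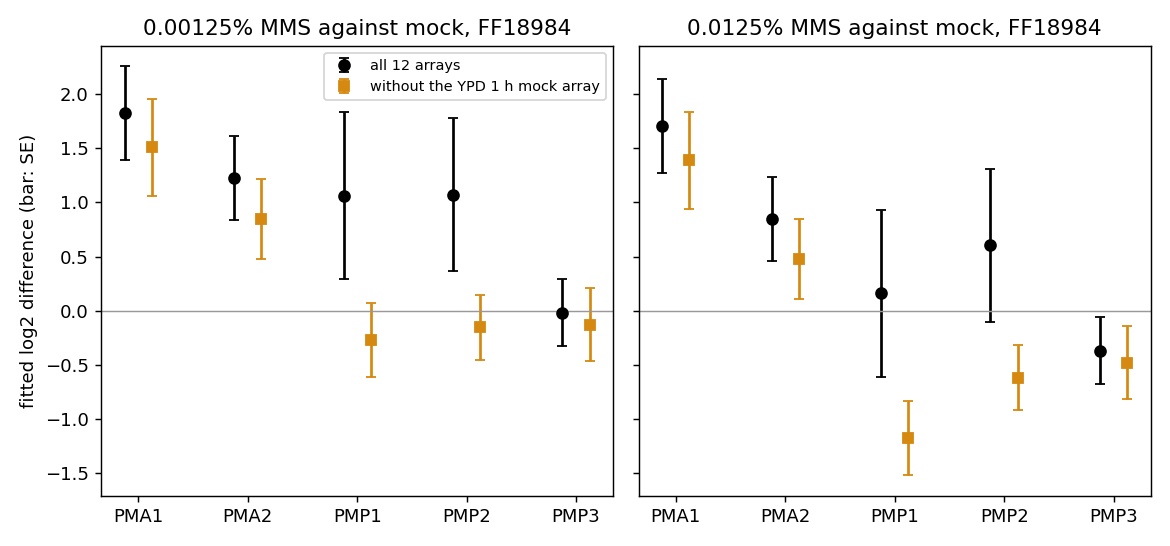
Fitted log2 difference from mock (y axis, bars show the SE) of the 5 genes at the low (left) and high dose (right) in FF18984, with all 12 arrays (circles) and without the YPD 1 h mock array (squares). PMP1 and PMP2 lie beneath 0 without that array, and PMA1 stays above 0.

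Time of sampling itself was not used to choose the genes. The arrays compared are, however, those of the MMS pairs on which PMA1 and PMP2 were selected. The p-values of PMA1 and PMP2 are thus not free of that selection, and its share in the time difference was not tested. PMA1 passed between the times, while the other 4 did not, and the difference between the genes was not tested. PMA1 was 2.69 ± 0.39 higher at 1 h than at 30 min (SE; limma adjusted p = 3.46e-05), with mean levels of 0.81 ± 1.03 at 30 min and 3.50 ± 1.16 at 1 h (SD, n = 6). It was higher at 1 h in 6 of 6 comparisons at the same medium and dose, by 1.09 to 3.79. The groups overlapped, since the low-dose F1 array at 30 min (2.37) lay above the YPD 1 h mock array (1.55). The level of PMA1 in the 1 h arrays of BY4742 was 1.34 and -1.30, beneath all 6 FF18984 arrays at 1 h.

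This has to be read against the whole table, because 3143 of 6102 positions (51.5%) passed between the times, 1642 higher and 1501 lower at 1 h. By size of the increase PMA1 ranked at 267, with 4.36% of positions above it. Each time holds 2 membrane sets, and no membrane was used for both times. Fitted on 1 mean per membrane set, a setting added after the data were seen, 2582 positions passed (42.3%), PMA1 among them (limma adjusted p = 1.80e-06). Only 4 means enter this fit, so its spread is almost wholly pooled over all positions. The SE was 0.514 for PMA1 and for PMP3 and 0.516 for PMA2. The p-value therefore does not measure the spread of PMA1 itself between sets. The BY4742 arrays, taken at 1 h, correlated across genes at 0.828 to 0.863 with the FF18984 YPD arrays of 30 min and at 0.407 to 0.422 with those of 1 h. Time, membrane and whatever else parted these arrays cannot be told apart.

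The other 4 genes did not pass between the times. PMA2 was 0.31 ± 0.36 higher at 1 h (limma adjusted p = 0.487), PMP1 differed by -0.11 ± 0.73 (limma adjusted p = 0.909) and turned to 0.69 under median centring, PMP2 differed by 0.42 ± 0.66 (limma adjusted p = 0.624) and PMP3 by 0.68 ± 0.31 (limma adjusted p = 0.0762). PMP1, PMP2 and PMP3 were each higher at 1 h in 5 of 6 comparisons at the same medium and dose, and PMA2 in 3 of 6. Without the YPD 1 h mock array PMP1 was at 0.80, PMP2 at 1.24 and PMP3 at 0.79 (limma adjusted p = 0.0430, 0.00175 and 0.0479). These calls were lost on 1 mean per membrane set without that array, at 0.66, 1.17 and 0.70 (limma adjusted p = 0.342, 0.0753 and 0.306). Under median centring, which placed the median of all positions at 0.32 for this comparison against 0.11 here, PMA2 and PMP3 passed at 1.44 and 1.40 (limma adjusted p = 0.0199 and 0.00657), and under cyclic loess PMA2 turned to -0.10 and did not pass (limma adjusted p = 0.818).

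None of the 5 genes passed between the media. In YPD against F1, 320 of 6102 positions passed (5.24%), and 138 (2.26%) did on 1 mean per membrane set, with 0 of the 5 genes in either. Of the 320, 201 were higher and 119 lower in YPD, against 204 and 250 under cyclic loess. PMA1 differed by -0.08 ± 0.39 (limma adjusted p = 0.937), PMA2 by -0.52 ± 0.36 (limma adjusted p = 0.443), PMP1 by -1.04 ± 0.73 (limma adjusted p = 0.461), PMP2 by -0.66 ± 0.66 (limma adjusted p = 0.620) and PMP3 by -0.18 ± 0.31 (limma adjusted p = 0.792). Under median centring PMA1 turned to 0.25 and PMP3 to 0.11. The largest single differences came from the mock arrays at 1 h, where PMP1 differed by -5.39 and PMP2 by -4.96 between YPD and F1. Without the YPD 1 h mock array PMP1 was at -0.13 and PMP2 at 0.16. For PMA2 both mock comparisons were lower in YPD, at -1.59 after 30 min and -1.23 after 1 h, while the 4 treated comparisons lay between -0.74 and 0.35.

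**Figure D5:**
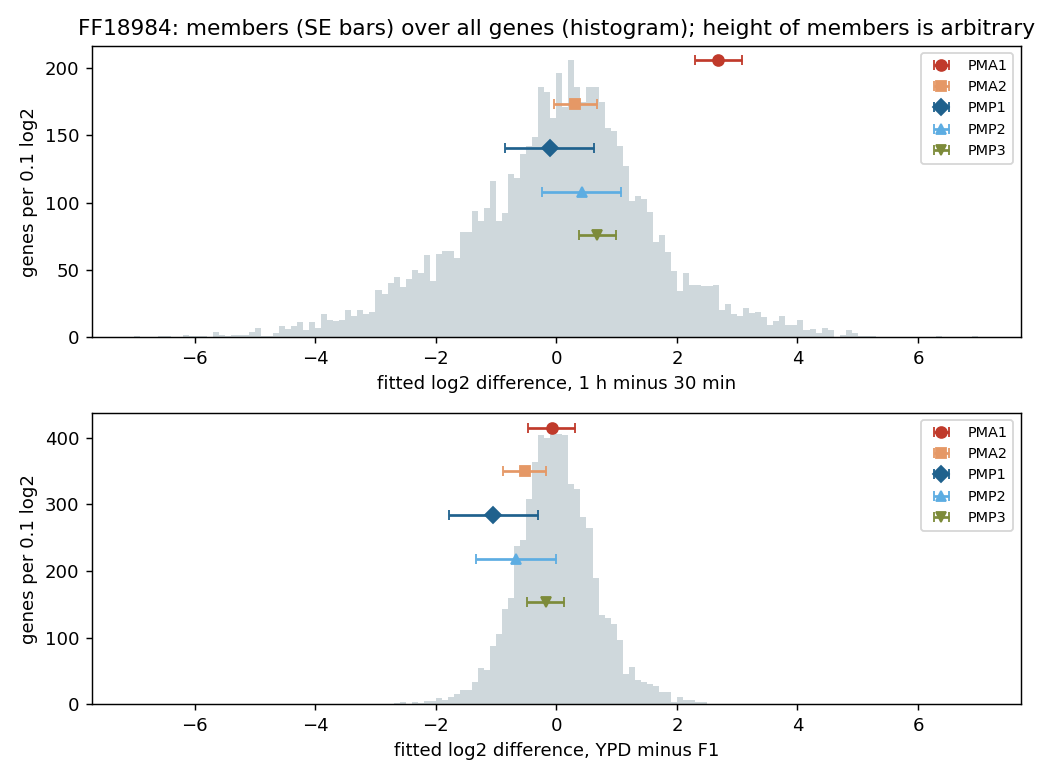
Fitted log2 differences between 1 h and 30 min (upper panel) and between YPD and F1 (lower panel) in FF18984, with all 6102 positions as a histogram (y axis, positions per 0.1) and the 5 genes with SE bars at arbitrary heights. PMA1 lies at 2.69 in the upper panel and near 0 in the lower one.

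Between the strains, the mock arrays in YPD at 1 h differed by 1 or more in 3327 of 6102 positions (54.5%) and in 2 of the 5 genes, PMP1 (4.67 higher in BY4742) and PMP2 (3.09 higher). Both rest on the dim FF18984 array. Against the FF18984 YPD mock array of 30 min the same genes differed by -0.04 and -0.36. PMA2 and PMP3 of the mock arrays at 1 h differed by 0.60 and 0.45, and PMA2 by 1.37 under cyclic loess. PMA1 differed by -0.21, and by 0.02 under median centring and 0.30 under cyclic loess, so it had no settled direction. High-dose PMA1 in BY4742 differed by -5.85 from FF18984 at 1 h and by -2.37 from FF18984 at 30 min, but without background subtraction by -2.97 and 0.04. The difference between high dose and mock of PMA1 in BY4742 ranged from -3.86 to -0.63 over the 8 settings. With 1 membrane set in BY4742, strain and membrane cannot be told apart.

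Other genes of proton and ion transport were counted from lists compiled with earlier results of these data known, and a list's count is a description. No member of any list (0) passed at the high dose, which is read beside the 0.0819% of all positions. Counts for medium are read beside the 5.24% of all positions that passed. The 14 other P-type ATPases had a median difference of 0.16 at the high dose, 8 of them above 0, where the median of all positions was -0.00. DNF1, a phospholipid flippase, was at 0.75 ± 0.28 (limma adjusted p = 0.273), and PMR1, the Golgi calcium and manganese pump, at 0.85 ± 0.37 (limma adjusted p = 0.346). For medium the list median was -0.20 and 0 passed, with YPK9, a vacuolar P-type ATPase, at 0.89 and DRS2, another flippase, at -0.86 (limma adjusted p = 0.220 and 0.231). DRS2 was above background on 9 of 14 arrays.

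The vacuolar proton pump, the V-ATPase that acidifies the vacuole, was measured through 14 of 15 listed genes. Their median at the high dose was -0.01 and 7 lay above 0. VMA7 was at 0.73 ± 0.29 and VMA2 at 0.84 ± 0.38 (limma adjusted p = 0.310 and 0.365). Between media 1 of the 14 passed, beside 5.24% of all positions. It was VMA2, subunit B of the peripheral sector, with a difference of -1.30 ± 0.36 in YPD against F1 (limma adjusted p = 0.0446). Its mean levels were 2.24 in F1 and 0.94 in YPD. This call was lost on 1 mean per membrane set, where 0 passed. VMA13 was at -0.46 (limma adjusted p = 0.433), and the list median was 0.12. Between the times 7 rose and 2 fell, beside 51.5% of all positions called, and 7 and 1 did on 1 mean per membrane set (42.3% called). The list median was 1.06 against 0.11 over all positions.

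The 5 genes for traffic and quality control of the pump had the lowest median of the lists at the high dose, -0.68, with 4 of 5 beneath 0. AST2, a paralog of a gene needed to deliver Pma1 to the surface, was at -1.52 ± 0.34, from a mean of 2.62 in mock to 1.09 (limma adjusted p = 0.110). EXP1, which helps Pma1 leave the endoplasmic reticulum, was at -1.31 ± 0.44 (limma adjusted p = 0.236). Between media the median was 0.16 and 0 passed, with PSG1 at 0.35 and EXP1 at 0.33 (limma adjusted p = 0.531 and 0.687).

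The 6 kinases and phosphatase listed for the pump had a median of 0.03 at the high dose. YCK1, a casein kinase of the plasma membrane, was at -0.75 ± 0.27, and its paralog YCK2 at 0.44 ± 0.42 (limma adjusted p = 0.259 and 0.676). Between media the median was 0.10 and 0 passed, with HRK1, a kinase that activates Pma1 in response to glucose, at -0.77 and PTK1 at -0.42 (limma adjusted p = 0.391 and 0.425). The 4 transcription factors listed for PMA1 had medians of -0.10 at the high dose and -0.12 for medium, and 0 passed. MCM1 was at -0.88 and RAP1 at -0.36 at the high dose (limma adjusted p = 0.467 and 0.745), while GCR2 was at -0.99 and MCM1 at 0.78 for medium (limma adjusted p = 0.119 and 0.367).

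Of the 5 potassium and sodium transport genes, with medians of 0.21 at the high dose and -0.03 for medium, 0 passed. KHA1, a potassium and proton antiporter gene, was at -0.96 and TRK2, a potassium uptake gene, at 0.63 at the high dose (limma adjusted p = 0.343 and 0.697). For medium TOK1, the outward potassium channel, was at -0.66 and KHA1 at 0.52 (limma adjusted p = 0.315 and 0.478). TOK1 and KHA1 were above background on 9 of 14 arrays. The 2 measured relatives of PMP3, with medians of -0.06 and -0.39, did not pass either. SNA3 was at -0.22 and SNA4 at 0.09 at the high dose, and at -0.79 and 0.00 for medium (limma adjusted p = 0.116 for SNA3).

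Of the genes for eisosomes and the membrane compartment that the pump is known to avoid, 5 of 6 were measured, with a median of 0.38 at the high dose and -0.92 for medium. Between media 1 of the 5 passed, beside 5.24% of all positions. PIL1, a core eisosome protein gene, fell by 1.09 in YPD against F1 (SE 0.26; limma adjusted p = 0.0195), from a mean level of 2.43 to 1.34, and this call was lost on 1 mean per membrane set. PUN1 was at -1.20 ± 0.37 (limma adjusted p = 0.0685). LSP1 was at 0.51 and PIL1 at 0.41 at the high dose (limma adjusted p = 0.494 and 0.504).

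At the low dose 0 of the measured genes of all 8 lists passed, which follows from 0 of 6102 positions passing. The list medians were 0.34 for the other P-type ATPases, 0.15 for the vacuolar pump, -0.06 for kinases and phosphatase and -0.18 for traffic. They were -0.27 for potassium and sodium transport, -0.20 for transcription factors, -0.31 for the PMP3 relatives and -0.18 for eisosome genes. Between the times, beside 51.5% of all positions, 0 of the other P-type ATPases rose and 6 fell. Of the kinases and phosphatase 0 rose and 2 fell, of the traffic genes 2 rose and 1 fell, and of the potassium and sodium genes 1 rose and 2 fell. Of the transcription factors 2 rose and 0 fell, of the PMP3 relatives 0 rose and 1 fell, and of the eisosome genes 1 rose and 1 fell. On 1 mean per membrane set the P-type ATPases that fell were 5, the kinases and phosphatase that fell 1, the transcription factors that rose 1 and the eisosome genes that rose 0, while the other counts in these 7 lists were as given.

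The patterns of the 5 genes over the arrays were compared after the mean of each membrane set was removed. These correlations are a description: all points come from 14 arrays that share membranes, and those named are the highest among the 2578 genes above background on all of them. PMP1 and PMP2 correlated at 0.96, and at 0.87 over the 13 arrays without the YPD 1 h mock array. Over the same 13 arrays PMP1 and PMP3 correlated at 0.82, against 0.47 with all 14. PMA1 and PMA2 correlated at 0.61, and at 0.36 without that array. PMA1 with PMP1 changed from 0.35 to -0.37 and with PMP2 from 0.45 to -0.35, so the sign of these correlations depends on that array.

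The genes most like PMP1 were HXT1, a low-affinity glucose transporter gene (0.97), SNF3, a glucose sensor gene (0.97), PMP2 and POP7, of RNase P (0.96), and without the YPD 1 h mock array these 4 stood at 0.94, 0.91, 0.87 and 0.79. For PMP2 they were SDS24 (0.97), ATP3, of mitochondrial ATP synthase (0.97), YLL044W (0.95) and HOM2, of methionine and threonine synthesis (0.94), which stood at 0.45 to 0.63 without that array. For PMP3 they were SCS7, a sphingolipid hydroxylase gene (0.97), AFG3, a mitochondrial protease gene (0.96), SFT2 (0.92) and PET18 (0.92), which stood at 0.93 to 0.98 without it. For PMA1 they were EMP70 (0.93), VPS33, of vacuolar fusion (0.92), ASG7 (0.92) and OST3, of the oligosaccharyltransferase (0.91). For PMA2 they were STP2, a transcription factor of amino acid permease genes (0.95), MAK5 (0.95), DAP2, a vacuolar peptidase gene (0.93), and TGL5, a lipase gene (0.92).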

How the data were processed

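Per the file headers, the authors deposited an intensity for each spot as spot integral, local background and their difference, with 2 spots at each of 6912 positions, and a series table of intensity values whose making is not stated. The software, scanner settings and gene build are not given in the sources used here. The 6102 positions with an open reading frame were used. From the deposited background-subtracted intensity, each array was divided by its median positive value, negative values were set to 0, a pseudocount of 0.195 (10th percentile of positive values) was added, log2 values of both spots were averaged, and arrays were quantile normalised.

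Groups came from the labels. Dose was fitted in limma 3.58.1 (R 4.3.3; lmFit, eBayes with trend) with membrane set as a block, which pairs the arrays because the labels place each medium and time on 1 membrane. For medium and time the set was a random block, through duplicateCorrelation of limma with statmod 1.5.0. Tested on simulated data, this random block called too many unchanged genes with only 4 sets, so fits on 1 mean per membrane set are given beside it. The spread in those fits is almost wholly pooled over all positions. Adjusted p-values cover all 6102 positions. Pairs and strains have no test. Python 3.11.15, numpy 2.4.6, pandas 2.3.3 and matplotlib 3.10.9 read the files and drew the figures.

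The genes and lists were chosen with earlier results of these data known. Named genes are the 5 members, per list the 2 with the smallest p for the high dose and the 2 for medium, and the 4 most alike per member. In the series table, the row of YCR024C followed the PMP1 spots better than the PMP1 row did (Spearman 0.73 against 0.17 over 14 arrays), so which row holds PMP1 is not settled and PMP1 was left out of that alternative.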

Additional observations from a re-analysis of the deposited data

Results flagged for a closer look

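PMA1 moved in opposite directions in the strains: at the high dose it differed from mock by -2.64 in BY4742 and was higher than mock in all 4 FF18984 sets, by 0.61 to 2.995. The difference between the strains was not tested. In the BY4742 high-dose array 1 of the PMA1 spots was below the local background, and without background subtraction the difference was -0.63, with 2 of the 4 FF18984 sets on the same side (-0.37 in F1 and -0.36 in YPD, both at 30 min).

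PMP2 was higher than mock in both YPD sets and lower in both F1 sets at either dose, and the YPD mean exceeded the F1 mean by 2.59 at the low and 3.22 at the high dose. PMP1 at the low dose was lower than mock at 30 min in both media and higher at 1 h in both, a difference of 2.75 between the means. The opposite directions were lost under median centring, where PMP2 in F1 at 1 h turned to 0.26 at the low and 0.38 at the high dose and PMP1 in F1 at 30 min to 0.04 at the low dose. These differences were not tested, and both rest on the YPD 1 h mock array, where PMP1 was at -2.10 and PMP2 at -0.77.

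PMP3 went opposite ways in smaller steps, and neither difference was tested. With the high dose it was lower at 30 min and higher at 1 h in both media, 1.20 between the means (lost without background subtraction, where the 1 h pairs were at -0.46 in F1 and -0.06 in YPD), and at the low dose it was higher in F1 and lower in YPD, -0.23 between the means, although the YPD 1 h pair turned to 0.58 under median centring.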

How the results depend on the processing

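Over the alternatives, the 5 genes gave 440 values that kept their side of the threshold or moved within the error. Another 129 moved further, 4 newly passed and 9 reversed. Some values that changed sign were counted among the 440, such as PMP1 at the high dose without background subtraction (0.16 to -0.43). The 9 are therefore not all the changes of sign. The cause was not tested unless the setting itself shows it. The count of positions that passed at the high dose was 5, and 0 under median centring, 1 under cyclic loess, 2 without background subtraction, 1 without the YPD 1 h mock array and 0 with no replicate block for the membrane set; leaving out each membrane set in turn gave 0 to 11. At the low dose it stayed at 0 in every setting run, also with no block and without each set. For medium the count was 320, and 199 without background subtraction, 493 with no replicate block, 138 on 1 mean per membrane set and 69 on these means without the YPD 1 h mock array. For time it was 3143, and 1475 over genes above background on all 12 arrays, where fewer genes were tested. Leaving out 1 set from the medium and time fits leaves no spread between sets, so those values have no test: PMP1 for medium then ran from -2.16 to 0.0707, reversing without either 1 h set. The block changed no call of the 5 genes. The settings that leave out the YPD 1 h mock array or use set means were chosen after seeing the data.

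Of the 45 pair values 19 were past the 2-fold size, and 9 without background subtraction. Over all 6102 positions, 534 to 2238 per pair were past it, and 17 to 600 without background subtraction. Between strains the 2 genes past it became 1 without background subtraction, 1 with the series table (without PMP1) and 3 under cyclic loess. Of all positions, 3327 were past it between strains, and 1584, 2592 and 3402 in these settings in the same order. PMP2 at the low dose reversed to -0.12 without the YPD 1 h set and to -0.15 without its mock array. PMP1 for time reversed to 0.80 without that array. The pair values of PMA1 in F1 at 30 min reversed with the second spot alone (-0.18 low, -2.42 high) and without background subtraction (-0.37, high), and PMA2 in YPD at 30 min (high) reversed under median centring (-0.11). PMA1 between the times passed in every setting with a test, at 1.50 to 3.49. Signal near the background limits PMA1 at 30 min and PMP1 in the YPD 1 h mock array.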
